A study of Mus musculus with 20 samples.

Results

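A set of 8 potassium channel genes was followed through tumour-associated myeloid cells of mice dosed with CBPi or vehicle. The 8 genes were Kcnn4, Kcnj2, Kcnj8, Kcnj10, Kcna3, Kcnk6, Kcnk13 and Kcne3, out of 23090 genes counted in each library, and all 8 were found by symbol through their Entrez gene IDs. They were taken as a set by gene family, and 3 of them, Kcnn4, Kcnj8 and Kcnj10, were selected on their lower counts under CBPi in these same libraries. For those 3 genes all comparisons, which draw on these libraries, are therefore given as a description with no p-value. CBPi stands for GNE-781, an oral compound that blocks the acetyl-lysine-binding bromodomains of CBP and EP300, a pair of related histone acetyltransferases.

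The 4 groups of 5 libraries were gMDSC from mice dosed with CBPi, gMDSC from mice dosed with vehicle, mMDSC from mice dosed with CBPi and mMDSC from mice dosed with vehicle. All mice were female SCID.beige animals of 6 to 8 weeks, a strain without T cells, B cells and functional NK cells, with a subcutaneous tumour grown from injected MDA.MB.231-X1.1 cells (human breast cancer) or CT26 cells (mouse colon carcinoma). The labels do not tie a library to a tumour line or to a mouse. Differences between lines therefore cannot be told apart from the spread within a group or from the differences between groups. The p-values measure only the spread between these libraries. Dosing by gavage, with 25 mg/kg CBPi or with MCT vehicle, was BID for 7 days from tumours of 150 to 200 mm3. Cells of digested tumours were sorted as CD45+ CD11b+ Ly6C+ F4/80-, with Ly6G+ cells taken as granulocytic (gMDSC) and Ly6G- cells as monocytic (mMDSC) myeloid-derived suppressor cells, and poly-A RNA was sequenced.

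Potassium channels let potassium leave the cell and so set the membrane voltage of a myeloid cell. A negative voltage draws calcium in through store-operated channels, and potassium efflux through some of these channels is a known trigger of the NLRP3 inflammasome in macrophages. Kcnn4 encodes the intermediate-conductance channel that opens when calcium binds the calmodulin held on it. Kcna3 encodes a voltage-gated channel of lymphocytes and macrophages, Kcnj2, Kcnj8 and Kcnj10 encode inward rectifiers, Kcnk6 and Kcnk13 encode tandem-pore leak channels, and Kcne3 encodes a small auxiliary subunit that forms no pore of its own.

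The RefSeq annotation of GRCm38.p6 places the genes as follows. Kcnn4 (gene ID 16534) spans chromosome 7, 24369826 to 24385212. Kcnj2 (16518) spans chromosome 11, 111066164 to 111076825, Kcnj8 (16523) chromosome 6, 142564837 to 142571614, and Kcnj10 (16513) chromosome 1, 172341210 to 172374085. Kcna3 (16491) spans chromosome 3, 107036162 to 107038129, Kcnk6 (52150) chromosome 7, 29221928 to 29232522, Kcnk13 (217826) chromosome 12, 99963149 to 100062682, and Kcne3 (57442) chromosome 7, 100176507 to 100184869. None of the 8 shared coding bases with another gene of the GENCODE annotation, although Kcna3 and Kcne3 each have an antisense transcript, and none had the same counts in all libraries as any other gene.

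The 3 genes noted for lower counts are shown with sequence upstream of their start, because they are the members that moved most. Sequences are from RefSeq (GRCm38.p6), 5′ to 3′ on the gene's strand, and capitals mark an E-box (CANNTG, read on both strands). For Kcnn4 a stretch around its E-box is given, because the upstream window lies inside the span of the gene, and for Kcnj8 and Kcnj10 the whole 250 bases before the start are given.
Kcnn4, chr7:24370118-24370147, plus strand: tgtgtctttgccCACGTGgatgaactcttc
Kcnj8, chr6:142571615-142571864, minus strand: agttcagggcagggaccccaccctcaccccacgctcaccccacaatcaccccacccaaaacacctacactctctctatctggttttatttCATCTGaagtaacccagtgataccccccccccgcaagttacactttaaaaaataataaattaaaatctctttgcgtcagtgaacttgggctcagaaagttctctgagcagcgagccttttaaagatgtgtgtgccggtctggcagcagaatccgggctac
Kcnj10, chr1:172340960-172341209, plus strand: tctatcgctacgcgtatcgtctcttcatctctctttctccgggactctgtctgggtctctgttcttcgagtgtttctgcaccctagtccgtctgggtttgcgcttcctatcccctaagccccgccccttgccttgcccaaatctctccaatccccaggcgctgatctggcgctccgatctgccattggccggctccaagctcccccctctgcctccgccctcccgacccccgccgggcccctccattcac
In these windows Kcnn4 and Kcnj8 held 1 E-box each, the palindrome CACGTG in Kcnn4, and Kcnj10 held none of the 5 motifs searched. Across the 7 members with an upstream window in the table (Kcnk6 had none), an E-box stood in 5, against 66.2% of all 32851 windows. The ETS core GAGGAA stood in Kcnj2, Kcna3 and Kcnk13, against 23.3% of windows, and the AP-1 element TGANTCA stood in Kcne3, against 6.75%. The cAMP response element TGACGTCA (1.55% of windows) and the TATA box TATAAA (12.4%) were in no member. The 3 genes thus shared no motif of those searched within these windows.

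Levels of 1 gene across libraries are given as CPM, counts per mega-count of the library, scaled by TMM over all 20 libraries, with means ± SD and n = 5 libraries per group. Levels of different genes are compared as RPKM, the authors' deposited read counts per kilobase of gene and library size. Total counts ran from 12.37 to 26.64 mega-counts per library, so that 3 counts, taken as the floor, correspond to 0.1126 to 0.2425 CPM. Counts of a gene in bulk RNA cannot tell fewer cells of a type from less RNA per cell. Vehicle gMDSC was the least even group, with correlations between libraries of 0.848 to 0.953, against 0.928 to 0.964 over the other groups. Within it library 3 was the least like the others and library 5 had little Ly6g (0.442 CPM, where the remaining 4 had 5.23 to 9.03 CPM). Some log2 fold changes that rest on this group are therefore also given without these 2 libraries. Group levels, shares of a sum and marker sums keep all 5 libraries. Summed over 8 neutrophil markers, CBPi gMDSC had 7000 to 13300 CPM and vehicle gMDSC 8660 to 33800 CPM, whereas CBPi mMDSC had 202 to 289 CPM and vehicle mMDSC 323 to 370 CPM. Ly6g itself was low, at 0.531 to 2.13 CPM in CBPi gMDSC. Adgre1, which encodes F4/80, was abundant in cells sorted as F4/80-negative, at 581 to 966 CPM in CBPi gMDSC, 615 to 1530 CPM in vehicle gMDSC, 438 to 651 CPM in CBPi mMDSC and 739 to 964 CPM in vehicle mMDSC. Ly6c2, of the Ly6C gate, had 296 to 409 CPM in CBPi mMDSC and 618 to 1200 CPM in vehicle mMDSC. In gMDSC, also sorted as Ly6C+, it had 12.7 to 19.9 CPM under CBPi and 20.7 to 67.4 CPM under vehicle. Monocyte markers summed to 3560 to 3870 CPM in CBPi mMDSC and 3690 to 6050 CPM in vehicle mMDSC. Itgam, of the CD11b gate, overlapped in mMDSC, at 500 to 871 CPM under CBPi and 288 to 802 CPM under vehicle. The part of these levels in the channel values was not tested.

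**Figure D1:**
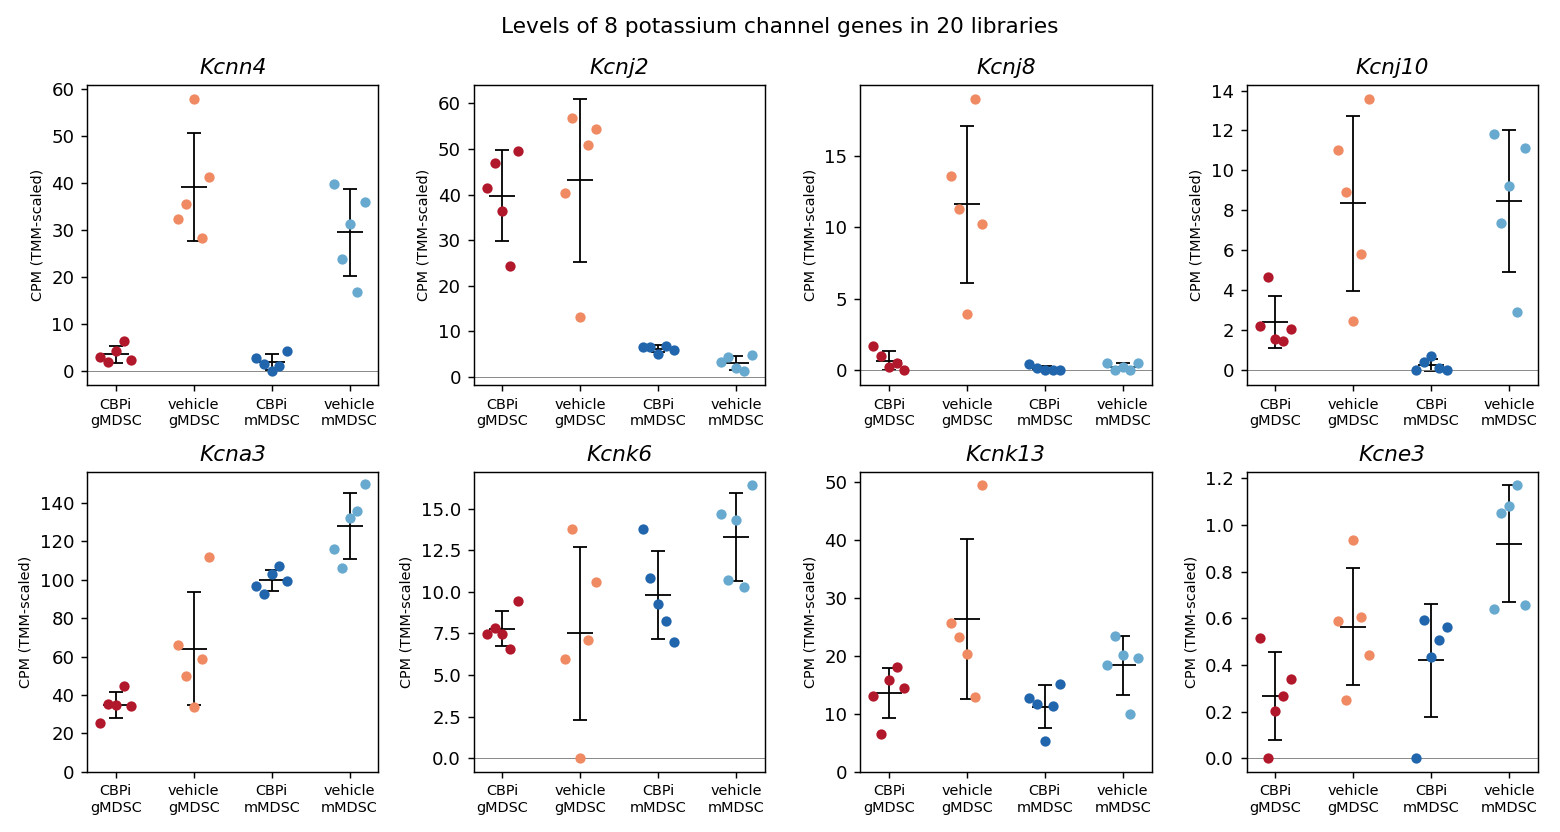
Levels of the 8 potassium channel genes, in TMM-scaled CPM on linear axes that differ between panels, in CBPi gMDSC, vehicle gMDSC, CBPi mMDSC and vehicle mMDSC. Each point is 1 library, with the mean and SD of the 5 libraries of its group drawn as bars, and Kcnn4 stands at 0 to 6.52 CPM in the 10 CBPi libraries, below all 10 vehicle libraries at 16.8 to 57.9 CPM.

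Kcnn4, the calcium-activated channel, was lower under CBPi in both populations. In CBPi gMDSC libraries 6 to 10 it had 2.97, 2.05, 4.24, 6.52 and 2.32 CPM, against 32.4, 35.5, 57.9, 28.4 and 41.2 CPM in vehicle gMDSC libraries 1 to 5. In CBPi mMDSC libraries 6 to 10 it had 2.87, 1.59, 0, 1.2 and 4.36 CPM, against 39.8, 23.8, 31.2, 16.8 and 36 CPM in vehicle mMDSC libraries 1 to 5. No CBPi library reached the lowest vehicle library of its population, and 1 CBPi mMDSC library had no Kcnn4 count at all. The mean was 3.62 ± 1.83 CPM in CBPi gMDSC and 39.1 ± 11.5 CPM in vehicle gMDSC, which is 10.8-fold lower, with a log2 fold change of -3.42 ± 0.354 (SE). It was 2.00 ± 1.67 CPM in CBPi mMDSC and 29.5 ± 9.28 CPM in vehicle mMDSC, 14.7-fold lower, with a log2 fold change of -3.88 ± 0.646. The difference between both responses was 0.42 ± 0.748 on the log2 scale, and 0.70 without vehicle gMDSC libraries 3 and 5. With any 1 library left out it ran from 0.10 to 0.99. Without vehicle gMDSC libraries 3 and 5 the log2 fold change in gMDSC was -3.13, and with any 1 library left out it ran from -3.73 to -3.24 in gMDSC and from -4.39 to -3.57 in mMDSC.

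Kcnj10, the inward rectifier best known from glia and kidney epithelium, where it clears potassium, was lower under CBPi in both populations but to different levels. In CBPi mMDSC libraries 6 to 10 it had 0, 0.407, 0.698, 0.0726 and 0 CPM, against 11.8, 7.34, 9.22, 2.92 and 11.1 CPM in vehicle mMDSC libraries 1 to 5. All 5 CBPi mMDSC libraries lay below every vehicle mMDSC library, and 3 of the 5 lay at or under the floor of 3 counts. In CBPi gMDSC libraries 6 to 10 it had 2.2, 4.64, 1.57, 1.44 and 2.07 CPM, against 11, 8.9, 2.43, 5.81 and 13.6 CPM in vehicle gMDSC libraries 1 to 5. Here the groups overlapped, since CBPi gMDSC library 7 exceeded vehicle gMDSC library 3. The mean was 0.235 ± 0.309 CPM in CBPi mMDSC and 8.48 ± 3.56 CPM in vehicle mMDSC, 36-fold lower, with a log2 fold change of -5.21 ± 0.874. It was 2.38 ± 1.3 CPM in CBPi gMDSC and 8.35 ± 4.37 CPM in vehicle gMDSC, 3.5-fold lower, with a log2 fold change of -1.79 ± 0.508. The gMDSC response minus the mMDSC response was 3.36 ± 1.0 on the log2 scale. Without vehicle gMDSC libraries 3 and 5 the gMDSC log2 fold change was -1.82.

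Kcnj8, which forms the pore of the ATP-sensitive channel of vascular muscle and pericytes, was counted mainly in vehicle gMDSC. CBPi gMDSC libraries 6 to 10 had 1.68, 0.971, 0.202, 0.481 and 0.0483 CPM, against 13.6, 11.3, 3.92, 19 and 10.2 CPM in vehicle gMDSC libraries 1 to 5. These groups did not overlap. In mMDSC it had 0 to 0.433 CPM in CBPi libraries and 0 to 0.542 CPM in vehicle libraries, and it did not pass the filter on low counts there. The mean was 0.676 ± 0.662 CPM in CBPi gMDSC and 11.6 ± 5.48 CPM in vehicle gMDSC, 17.2-fold lower, with a log2 fold change of -4.10 ± 0.738, and of -4.43 without vehicle gMDSC libraries 3 and 5. Abcc9, the sulfonylurea receptor that joins Kcnj8 in smooth muscle, averaged 0.311 ± 0.554 CPM in CBPi gMDSC and 0.139 ± 0.226 CPM in vehicle gMDSC. Abcc8, the receptor of pancreatic beta cells, averaged 2.1 ± 1.05 CPM in CBPi gMDSC and 3.51 ± 3.19 CPM in vehicle gMDSC.

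Some markers of other cells moved with some of these values in gMDSC, and others did not. The summed level of 8 mural cell markers was 5.83 to 33.7 CPM in CBPi gMDSC and 41.6 to 112 CPM in vehicle gMDSC, of which Acta2, a smooth muscle actin, gave the most, at 13.4 ± 6.7 CPM in CBPi gMDSC and 67.4 ± 27.2 CPM in vehicle gMDSC. Rgs5, a defining pericyte marker, was near 0 in both, at 0.138 ± 0.225 CPM in CBPi gMDSC and 0.155 ± 0.178 CPM in vehicle gMDSC, and Higd1b was at 0 in CBPi gMDSC. The 8 glial markers summed to 9.25 to 22.8 CPM in CBPi gMDSC and 17.1 to 41 CPM in vehicle gMDSC, and to 6.06 to 9.12 CPM in CBPi mMDSC and 6.91 to 13.7 CPM in vehicle mMDSC. Of these Sox10 and Gfap were at 0 in CBPi gMDSC and in both mMDSC groups and averaged 0.0536 ± 0.0493 and 0.0265 ± 0.0593 CPM in vehicle gMDSC. Kcnj16, a glial partner of Kcnj10, was at 0 in CBPi gMDSC and in both mMDSC groups and was counted in 1 vehicle gMDSC library (1.41 CPM). Epithelial markers summed to 8.11 to 13.6 CPM in CBPi gMDSC and 26.2 to 62.2 CPM in vehicle gMDSC, and lymphocyte and NK cell markers to 2.03 to 6.33 CPM in CBPi gMDSC and 12.1 to 54 CPM in vehicle gMDSC. Macrophage markers summed to 15800 to 31000 CPM in CBPi gMDSC and 32100 to 74000 CPM in vehicle gMDSC, and to 19200 to 23700 CPM in CBPi mMDSC and 21700 to 31200 CPM in vehicle mMDSC. Dendritic cell markers summed to 17.8 to 38.3 CPM in CBPi gMDSC and 7.47 to 25.3 CPM in vehicle gMDSC. In the same order, endothelial markers summed to 60.6 to 86.3 and 22.5 to 94.5 CPM, and fibroblast markers to 97.9 to 368 and 132 to 475 CPM. Mast cell markers summed to 2750 to 6930 CPM in CBPi gMDSC and 2900 to 5650 CPM in vehicle gMDSC. In CBPi mMDSC they summed to 36.9 to 47.1 CPM and in vehicle mMDSC to 17.5 to 40.2 CPM. The part of these marker signals in the lower channel counts was not tested.

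The 5 members that were not chosen by their response were tested with edgeR's quasi-likelihood test, adjusted by Benjamini-Hochberg over all genes tested. Under CBPi, 0 of the 4 that passed the filter in gMDSC and 0 of the 5 in mMDSC had an adjusted p under 0.05. The background over all genes was 5.52% called lower and 4.18% called higher of 11694 genes in gMDSC, and 5.54% lower and 3.02% higher of 11912 genes in mMDSC. Of the whole set, 7 of 8 passed the filter in gMDSC (Kcne3 did not) and 7 of 8 in mMDSC (Kcnj8 did not). At an unadjusted p under 0.05, Kcna3 and Kcnk13 passed in gMDSC, and Kcnj2, Kcna3 and Kcnk13 in mMDSC. Over all genes tested, 3030 of 11694 passed that cut-off in gMDSC and 2664 of 11912 in mMDSC.

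Kcna3 had lower means under CBPi in both populations without passing the adjusted threshold. In CBPi gMDSC libraries 6 to 10 it had 25.3, 35.5, 34.9, 44.6 and 34 CPM, against 66.2, 49.7, 33.7, 58.5 and 112 CPM in vehicle gMDSC libraries 1 to 5. In CBPi mMDSC libraries 6 to 10 it had 96.7, 92.4, 103, 107 and 99.2 CPM, against 116, 106, 132, 136 and 150 CPM in vehicle mMDSC libraries 1 to 5. The groups overlapped in both, in mMDSC by 1 library on each side. The log2 fold change was -0.86 ± 0.277 in gMDSC (adjusted p = 0.0682) and -0.38 ± 0.117 in mMDSC (adjusted p = 0.0646). Without vehicle gMDSC libraries 3 and 5, the gMDSC value was -0.71 with an adjusted p of 0.0404. DESeq2 called both, with adjusted p of 0.025 in gMDSC and 0.0191 in mMDSC. With 1 library left out the adjusted p ran from 0.0156 (without vehicle gMDSC library 3) to 0.156 in gMDSC, where the log2 fold change was -0.56 without vehicle gMDSC library 5, and from 0.0377 (without vehicle mMDSC library 2) to 0.133 in mMDSC.

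Kcnj2, the strong inward rectifier that holds the resting potential, was the one member with a higher mean under CBPi in mMDSC. It had 6.53, 6.54, 4.93, 6.86 and 5.86 CPM in CBPi mMDSC libraries 6 to 10, against 3.3, 4.38, 2.02, 1.22 and 4.8 CPM in vehicle mMDSC libraries 1 to 5. These groups did not overlap, by a narrow gap between 4.93 and 4.8 CPM, yet the log2 fold change of 0.94 ± 0.355 missed the threshold (adjusted p = 0.131). In gMDSC it had 41.4, 47, 36.4, 24.3 and 49.5 CPM in CBPi libraries 6 to 10, against 40.4, 56.8, 13.1, 50.9 and 54.5 CPM in vehicle libraries 1 to 5, with a log2 fold change of -0.11 ± 0.336 (adjusted p = 0.879). Over all genes, 4.38% were higher and 5.41% lower without overlap in mMDSC, and 5.32% and 6.81% in gMDSC.

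The tandem-pore channels and Kcne3 showed the same lack of a call. Kcnk13, a leak channel of microglia, had 6.53 to 18.1 CPM in CBPi gMDSC and 12.9 to 49.6 CPM in vehicle gMDSC (log2 fold change -0.95 ± 0.358, adjusted p = 0.114). It had 5.32 to 15.2 CPM in CBPi mMDSC and 10 to 23.5 CPM in vehicle mMDSC (-0.72 ± 0.278, adjusted p = 0.141). Leaving out vehicle mMDSC library 4, the lowest of its group, took the mMDSC adjusted p to 0.0493. Without vehicle gMDSC libraries 3 and 5 the gMDSC log2 fold change was -0.58, more than 1.5 times smaller, and library 5 was the highest of its group.

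Kcnk6, a tandem-pore channel through which macrophages lose potassium when the inflammasome is triggered, had 6.58 to 9.46 CPM in CBPi gMDSC and 0 to 13.8 CPM in vehicle gMDSC, where library 3 had no count. Its log2 fold change was 0.05 ± 0.723 in gMDSC (adjusted p = 0.975), and -0.20 (adjusted p = 0.761) without vehicle gMDSC libraries 3 and 5. In mMDSC it had 6.99 to 13.8 CPM under CBPi and 10.3 to 16.4 CPM under vehicle (-0.46 ± 0.224, adjusted p = 0.251). Kcne3, whose best-known partner Kcnq1 averaged under 0.15 CPM in every group, was counted at 0 to 0.592 CPM in CBPi mMDSC and 0.64 to 1.17 CPM in vehicle mMDSC. These low values did not overlap, and their log2 fold change was -1.13 ± 0.706 (adjusted p = 0.384). In gMDSC it had 0 to 0.517 CPM under CBPi and 0.25 to 0.934 CPM under vehicle, too low to be tested.

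**Figure D2:**
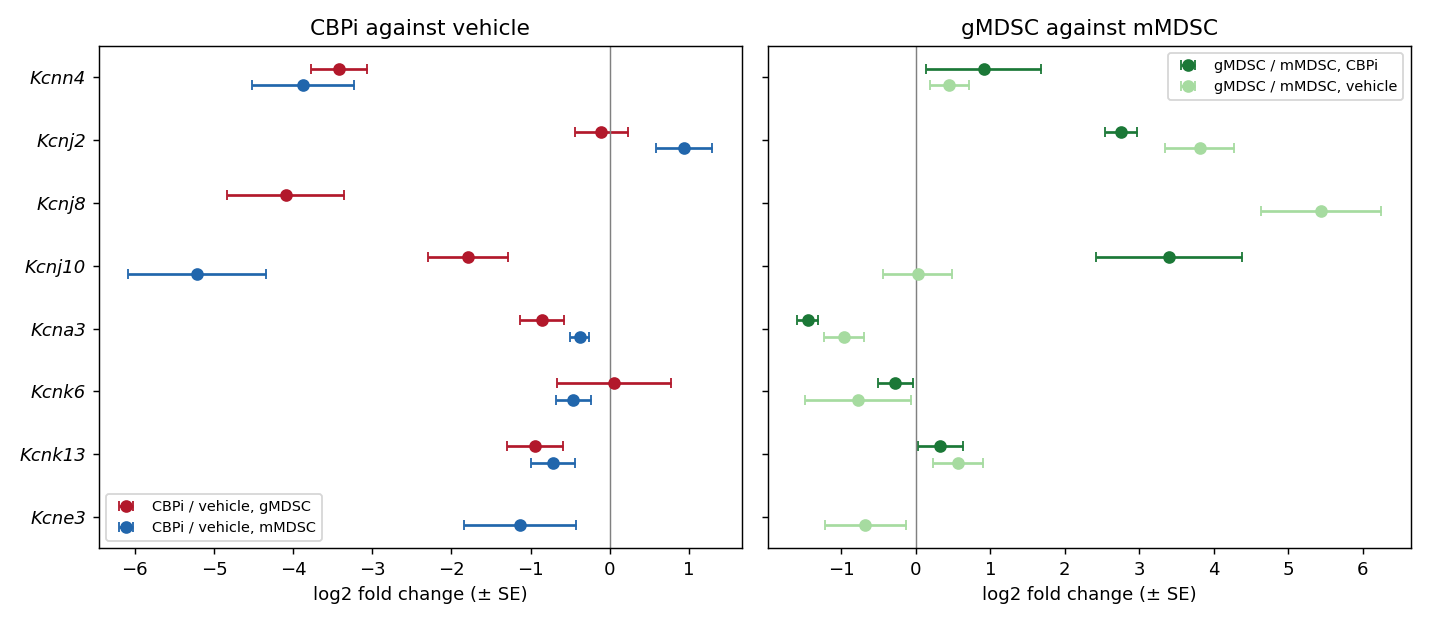
Log2 fold changes with standard errors from edgeR for the potassium channel genes, on the left CBPi against vehicle in gMDSC and in mMDSC, on the right gMDSC against mMDSC under CBPi and under vehicle. Kcnn4, Kcnj8 and Kcnj10 lie at -1.79 or lower wherever they were fitted on the left, and the other members lie between -1.13 and 0.94; genes that did not pass the low-count filter have no point.

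The response to CBPi was also compared between the populations, in 1 fit of all 20 libraries. Of the 5 tested members 0 were called by edgeR, DESeq2 or limma-voom (1, Kcnj2, had an unadjusted edgeR p under 0.05), with the gMDSC response minus the mMDSC response at -1.08 ± 0.481 for Kcnj2 (adjusted p = 0.386), -0.52 ± 0.304 for Kcna3 (0.541), 0.47 ± 0.762 for Kcnk6 (0.866), -0.26 ± 0.47 for Kcnk13 (0.883) and 0.03 ± 1.52 for Kcne3 (0.997). Few genes were called in this comparison, 0.497% in the higher and 0.229% in the lower direction of 12688 genes. An unadjusted p under 0.05 was found for 1454 of the 12688. For the 3 noted genes the values are 0.42 ± 0.748 for Kcnn4, 3.36 ± 1.0 for Kcnj10 and -2.93 ± 1.44 for Kcnj8, and the Kcnj8 value came to -1.40 when CBPi mMDSC library 6, which held 11 of the 15 Kcnj8 counts of its group, was left out.

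The 2 populations differed in the level of 2 members, Kcnj2 and Kcna3. These comparisons use the same libraries as the CBPi comparisons, so they are not independent of them. Kcnj2 was higher in gMDSC, at 39.7 ± 10 CPM in CBPi gMDSC and 6.15 ± 0.771 CPM in CBPi mMDSC, and at 43.1 ± 17.9 CPM in vehicle gMDSC and 3.14 ± 1.52 CPM in vehicle mMDSC. The log2 fold change was 2.75 ± 0.209 under CBPi (adjusted p = 4.92e-07) and 3.81 ± 0.461 under vehicle (adjusted p = 6.54e-05), with every gMDSC library above every mMDSC library in both. Kcna3 was lower in gMDSC, at 34.9 ± 6.84 CPM in CBPi gMDSC and 99.6 ± 5.62 CPM in CBPi mMDSC (-1.45 ± 0.145, adjusted p = 5.62e-06), without overlap. Under vehicle it was 63.9 ± 29.2 CPM in gMDSC and 128 ± 17.2 CPM in mMDSC (-0.96 ± 0.264, adjusted p = 0.0194), with an overlap made by vehicle gMDSC library 5, and -1.10 (adjusted p = 0.000791) without vehicle gMDSC libraries 3 and 5. The vehicle call for Kcna3 ended, with an adjusted p of 0.0505, when vehicle gMDSC library 2 was left out.

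For the 3 genes selected on these libraries the population values are a description. Kcnj10 had a log2 fold change, gMDSC against mMDSC, of 3.40 ± 0.979 under CBPi, where its 5 CBPi gMDSC libraries lay above all 5 CBPi mMDSC libraries and 3 of those mMDSC libraries were at or under the floor, and of 0.02 ± 0.467 under vehicle. Kcnj8 had a log2 fold change of 5.44 ± 0.808 under vehicle, without overlap, and it passed the low-count filter there through vehicle gMDSC alone. Under CBPi Kcnj8 did not pass the filter. Kcnn4 had a log2 fold change of 0.91 ± 0.771 under CBPi and of 0.45 ± 0.262 under vehicle. Without vehicle gMDSC libraries 3 and 5 the vehicle values were 0.15 for Kcnn4, 0.05 for Kcnj10 and 5.76 for Kcnj8.

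No call was made for the remaining tested members. Kcnk13 differed by 0.33 ± 0.3 under CBPi (adjusted p = 0.419) and 0.57 ± 0.336 under vehicle (0.273), Kcnk6 by -0.28 ± 0.232 (0.378) and -0.78 ± 0.712 (0.499), and Kcne3 under vehicle by -0.68 ± 0.541 (0.433). Without vehicle gMDSC libraries 3 and 5 the vehicle values were 0.20 for Kcnk13 (0.674), -0.53 for Kcnk6 (0.259) and -0.89 for Kcne3 (0.38). The sign of 2 of the ratios of mean levels between populations depended on scaling. Kcnj10 under vehicle was not among these. Its fitted value was 0.02, while its mean was lower in gMDSC than in mMDSC in TMM-scaled CPM (8.35 and 8.48) and in RPKM (3.03 and 3.99). TMM raised gMDSC relative to mMDSC. Read from Kcna3, log2 ratios of gMDSC to mMDSC moved by -0.43 under CBPi and by -0.34 under vehicle in CPM without TMM. With the deposited RPKM, which also uses another library total, they moved by -0.49 and by -0.42. The ratio of mean Kcnn4 levels under vehicle then turned to -0.06 and that of Kcnk13 under CBPi to -0.19 (-0.13 in CPM without TMM), whereas the signs of Kcnj2 and Kcna3 held in CPM without TMM and in RPKM under both treatments.

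Of the 5 members not selected on these libraries, 4 passed the filter under CBPi and 5 under vehicle, and in each treatment Kcnj2 was called higher in gMDSC and Kcna3 lower. Over all genes tested, 20.1% were called higher and 19.1% lower under CBPi (11895 genes), and 13.6% higher and 8.08% lower under vehicle (11576 genes). Without overlap, 14.3% of all genes were higher and 15.9% lower in gMDSC under CBPi, and 10.9% and 9.23% under vehicle.

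Per kilobase, Kcna3 was the most abundant of the 8 in mMDSC. It had 44.5 ± 2.98 RPKM in CBPi mMDSC and 52.7 ± 8.09 RPKM in vehicle mMDSC, above the next gene in every library. In CBPi mMDSC the next genes were Kcnk6 at 7.37 ± 1.86 and Kcnk13 at 6.62 ± 2.3 RPKM, whose ranges overlapped, then Kcnj2 at 3.4 ± 0.52 RPKM. In vehicle mMDSC the next gene was Kcnn4 at 15.4 ± 5.81 RPKM, whose range overlapped that of Kcnk13 (10 ± 3.12 RPKM) and was followed by Kcnk6 at 9.37 ± 2.48 RPKM. Kcnn4 thus stood below these 4 genes in CBPi mMDSC, at 1.13 ± 0.952 RPKM, and next to Kcna3 in vehicle mMDSC.

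In gMDSC the order was led by Kcnj2 and Kcna3. CBPi gMDSC had Kcnj2 at 15.6 ± 4.02, Kcna3 at 11.3 ± 3.19, Kcnk13 at 5.8 ± 2.3, Kcnk6 at 4.21 ± 0.845 and Kcnn4 at 1.48 ± 0.854 RPKM. Vehicle gMDSC had Kcna3 at 20.7 ± 11.9, Kcnj2 at 17.4 ± 8.83, Kcnn4 at 14.8 ± 3.48 and Kcnk13 at 11.1 ± 7.25 RPKM, and each of these overlapped its neighbour in the order. Kcnj8 stood at 4.61 ± 2.22 RPKM in vehicle gMDSC, beside Kcnk6 at 4.3 ± 3.28 RPKM, and at 0.244 ± 0.213 RPKM, the last place, in CBPi gMDSC.

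Potassium channel RNA was concentrated in few genes. Summed over the 78 pore-forming genes of a list of potassium channel genes, it came to 53.6 ± 7.9 RPKM in CBPi gMDSC, 93.8 ± 36.5 RPKM in vehicle gMDSC, 89.5 ± 7.14 RPKM in CBPi mMDSC and 115 ± 20.2 RPKM in vehicle mMDSC. The 7 pore-forming members made up 73.5% of this sum in CBPi gMDSC and 80.5% in vehicle gMDSC, and 70.6% in CBPi mMDSC and 80.8% in vehicle mMDSC. Most of the rest was Tmem175, a channel of endosomes and lysosomes, with 18.6% in CBPi gMDSC, 14.8% in vehicle gMDSC, 26.2% in CBPi mMDSC and 16.2% in vehicle mMDSC. Kcnn4 held 2.7% in CBPi gMDSC and 18.2% in vehicle gMDSC, and 1.21% in CBPi mMDSC and 13% in vehicle mMDSC. Its vehicle gMDSC share was uneven, with an SD of 10.6 and 12.7% to 37.2% over the libraries. In vehicle mMDSC it ran from 8.57% to 17.2%. Kcna3 held 49.8% in CBPi mMDSC and 46.3% in vehicle mMDSC, and Kcnj2 29.4% in CBPi gMDSC and 17.6% in vehicle gMDSC. Shares of a sum move together, so a larger share of 1 gene can come from a smaller level of another.

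**Figure D3:**
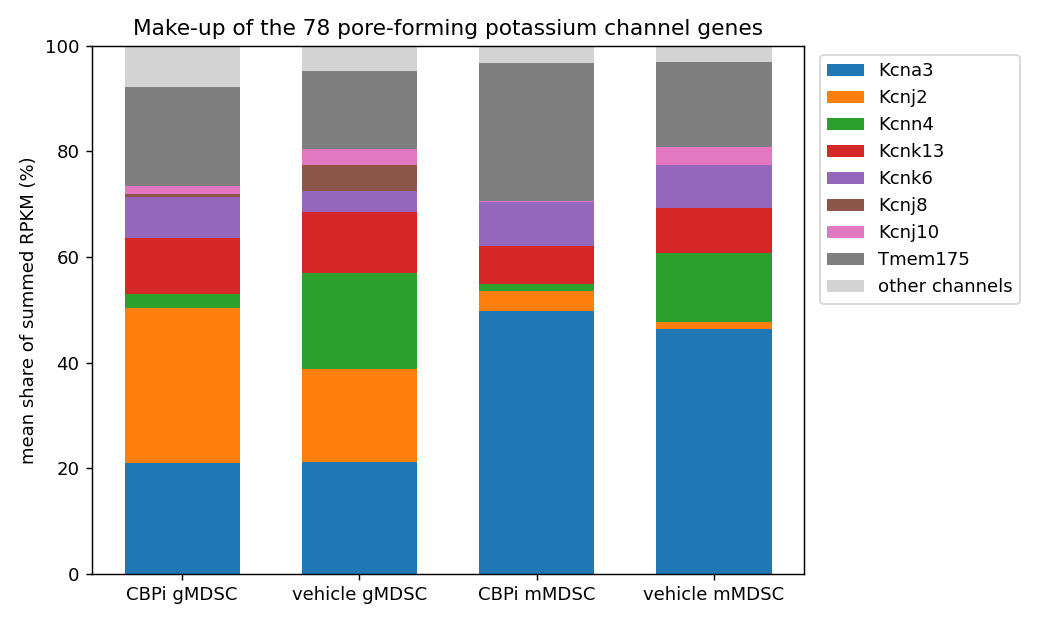
Mean share (%) of the summed RPKM of the 78 pore-forming potassium channel genes held by each of the 7 pore-forming members, by Tmem175 and by all other channels, in each of the 4 groups (n = 5 libraries). Kcna3 fills 49.8% of the CBPi mMDSC bar and 46.3% of the vehicle mMDSC bar. The Kcnn4 band is 2.7% in CBPi gMDSC and 18.2% in vehicle gMDSC, where single libraries ran from 12.7% to 37.2%.

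The other potassium channel genes had few or no counts. Of the 94 matched genes of the list beyond the 8 members, 17 had no count in any library, 73 stayed under 0.1 RPKM in the mean of every group and 6 reached 1 RPKM in at least 1 group. The highest were Tmem175 and Kcnab2, a cytosolic beta subunit of voltage-gated channels, with 23.6 and 7.63 RPKM in CBPi mMDSC. The closest relatives of Kcnn4, the small-conductance channel genes Kcnn1, Kcnn2 and Kcnn3, averaged at most 0.171 CPM in any group, and Kcnma1, the large-conductance calcium-activated channel, at most 0.197 CPM.

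Among the other channel genes no CBPi change was called. In gMDSC 0 of 10 tested were called in either direction (4 at an unadjusted p under 0.05), with a median log2 fold change of -0.11, against 0 over all genes, while DESeq2 called 1 higher and 1 lower. In mMDSC 0 of 9 were called (2 unadjusted), with a median of -0.03, against 0.01 over all genes, while DESeq2 called 1 higher. For the difference between both responses, 0 of 11 were called (1 unadjusted). Over all genes, an unadjusted p under 0.05 was found for 3030 of 11694 in gMDSC and 2664 of 11912 in mMDSC. For the difference it was found for 1454 of 12688. Between the populations under CBPi, 2 of 11 were higher and 3 lower in gMDSC, against 20.1% and 19.1% over all genes. Kcnab1, another cytosolic beta subunit, was higher by 2.41 ± 0.5 on the log2 scale (adjusted p = 0.00205). Kcnk7, of the tandem-pore family, was higher by 3.54 ± 0.784. It passed the low-count filter in the gMDSC libraries and not in the mMDSC libraries alone, so its value is given as a description. Among those lower were Tmem175 (-0.70 ± 0.156, adjusted p = 0.00319) and Kcnab2 (-0.85 ± 0.241, adjusted p = 0.0132). Under vehicle 0 of 6 were called (2 unadjusted, against 3780 of 11576 over all genes), and DESeq2 called 1 higher.

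**Figure D4:**
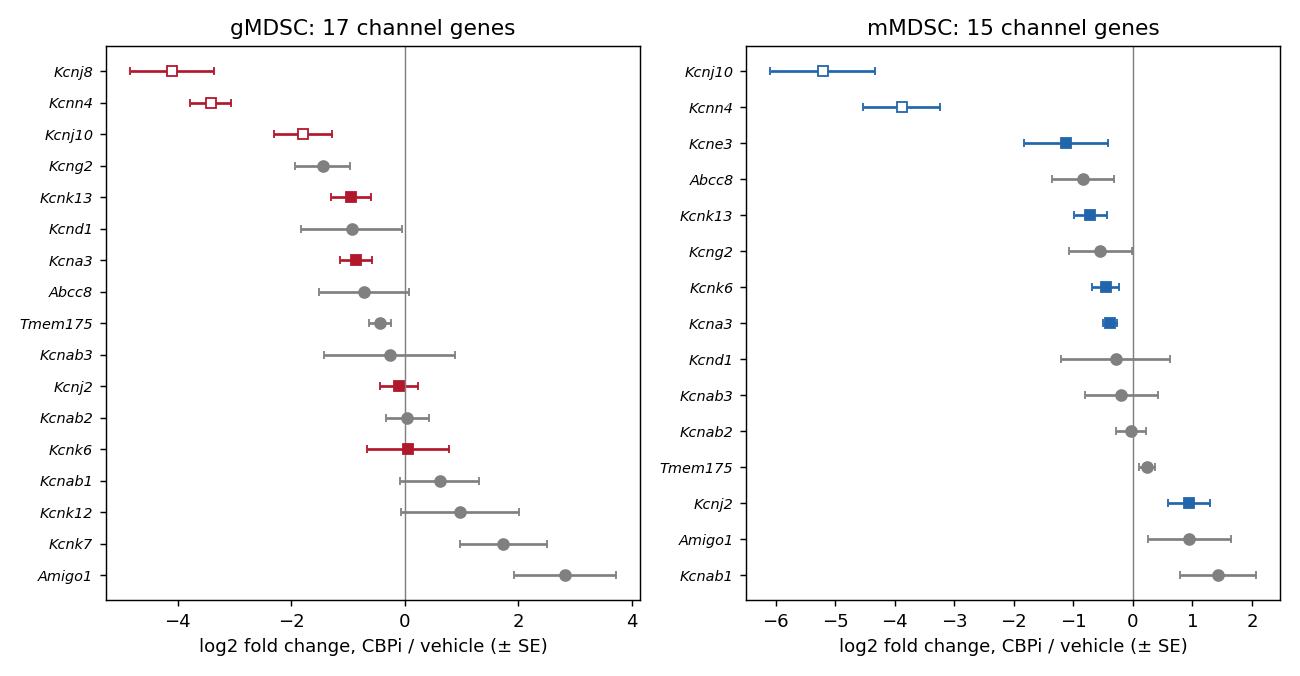
Log2 fold changes, CBPi against vehicle, with standard errors from edgeR for potassium channel genes that passed the low-count filter, all 17 in gMDSC on the left and 15 of 16 in mMDSC on the right, in order of size. Open squares are Kcnn4, Kcnj8 and Kcnj10, which were selected on this change, filled squares the other members and grey circles the other channel genes; in both panels the open squares are the lowest.

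A second list held 42 genes that work beside these channels: calmodulins, calcium entry and release channels, regulators of Kcnn4, the sodium-potassium pump and volume-regulating transporters. Under CBPi 2 of the 36 tested were higher and 1 lower in gMDSC (median log2 fold change 0, equal to that of all genes), and 1 was higher and 2 lower in mMDSC (median -0.13, against 0.01). The shares over all genes were 4.18% higher and 5.52% lower in gMDSC, and 3.02% higher and 5.54% lower in mMDSC. Atp1b3, the beta subunit that brings the sodium-potassium pump to the membrane and so helps build the gradient these channels run down, rose in both. It averaged 590 ± 103 CPM in CBPi gMDSC and 102 ± 11.4 CPM in vehicle gMDSC (2.55 ± 0.163, adjusted p = 4.1e-06), and 652 ± 80.7 CPM in CBPi mMDSC and 150 ± 21.4 CPM in vehicle mMDSC (2.10 ± 0.126, adjusted p = 2.95e-06). Nme2, whose human form activates the KCNN4 channel of T cells by phosphorylating a histidine, fell in gMDSC to 10.6 ± 2.12 CPM under CBPi, against 23.1 ± 7.42 CPM under vehicle (-1.11 ± 0.26, adjusted p = 0.0185, and 0.0558 without CBPi gMDSC library 7). Trpm4, a sodium-passing channel opened by calcium, averaged 10.3 ± 5.04 CPM in CBPi gMDSC and 2.85 ± 1.77 CPM in vehicle gMDSC (1.84 ± 0.528, adjusted p = 0.0444), but the call ended without vehicle gMDSC libraries 3 and 5 (0.0652) and without any 1 of CBPi gMDSC libraries 7 to 10 or vehicle gMDSC libraries 1, 3 and 4 (0.0518 to 0.117), as it did with limma-voom (0.076) and without the low-count filter (0.0511).

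In mMDSC the 2 companion genes called lower were Hvcn1 and Trpm2. In gMDSC Hvcn1 was also lower but just missed the threshold (-1.16 ± 0.345, adjusted p = 0.051), and Trpm2 changed little (-0.09 ± 0.245, adjusted p = 0.855). Hvcn1, the voltage-gated proton channel that balances charge during the oxidative burst, averaged 14 ± 2.02 CPM in CBPi mMDSC and 41.4 ± 25 CPM in vehicle mMDSC (-1.58 ± 0.309, adjusted p = 0.00686). Trpm2, a calcium-passing channel opened by oxidative stress, averaged 20.9 ± 7.34 CPM in CBPi mMDSC and 51.2 ± 20.3 CPM in vehicle mMDSC (-1.31 ± 0.279, adjusted p = 0.0112). The calmodulin, Orai1, Stim1 and Stim2 genes, through which calcium reaches Kcnn4, were not called in either population, the nearest being the calmodulin gene Calm3 in gMDSC (log2 fold change -0.81, adjusted p = 0.0504).

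Between the populations, the companion genes split evenly under CBPi, with 9 of 36 tested higher and 9 lower in gMDSC, and under vehicle 5 of 37 were higher and 8 lower. Over all genes tested, 20.1% were called higher and 19.1% lower under CBPi, and 13.6% higher and 8.08% lower under vehicle. Orai2, a pore of store-operated calcium entry, was higher in gMDSC under CBPi (2.57 ± 0.434, adjusted p = 0.000467) and under vehicle (2.46 ± 0.33, adjusted p = 0.000149). Trpm2 was higher too, by 2.97 ± 0.276 under CBPi (adjusted p = 3.01e-06) and 1.77 ± 0.258 under vehicle (adjusted p = 0.000298). Lower in gMDSC were Itpr1, an inositol trisphosphate receptor that releases stored calcium, under CBPi (-1.60 ± 0.227, adjusted p = 0.000119), and Nme2 under CBPi (-1.17 ± 0.205, adjusted p = 0.000609). Under vehicle Piezo1, a channel opened by membrane stretch, was lower (-1.27 ± 0.229, adjusted p = 0.00138), as was Lrrc8c, a subunit of the volume-regulated anion channel (-1.96 ± 0.376, adjusted p = 0.00219). The response to CBPi of these 42 genes was called different between the populations for 0 of 38 tested. An unadjusted p under 0.05 was found for 4 of them, against 1454 of 12688 over all genes.

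Among the 5 genes whose profile over the 20 libraries was most like that of Kcnn4 were Serpine2, 2900026A02Rik, E2f2 and Fcrl5. Likeness was the root-mean-square difference between log2 CPM profiles, each centred on its own mean, and it was 1.248 for Serpine2, 1.272 for 2900026A02Rik, 1.308 for E2f2 and 1.317 for Fcrl5, against a median of 2.432 over 12687 genes. Serpine2, a protease inhibitor, averaged 5.77 ± 2.42 CPM in CBPi gMDSC, 50.6 ± 15 CPM in vehicle gMDSC, 1.92 ± 1.6 CPM in CBPi mMDSC and 7.66 ± 3.46 CPM in vehicle mMDSC. These 4 had lower means under CBPi in both populations, which follows from the choice by likeness to Kcnn4.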

How the data were processed

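Poly-A RNA of sorted mMDSC and gMDSC was measured in 20 libraries, grouped by the titles and treatment labels into 4 groups of 5. The authors deposited whole-number counts per gene, not normalized, and beside them RPKM values they computed with a library total of which the counts are 50.25% to 62.44%. Per the submitters' processing notes reads were aligned with GSNAP to GRCm38; the sources used here name neither the counter nor its strand setting, so antisense reads cannot be told apart. The deposited widths, in bases, served only to check the RPKM values. Of 23090 IDs, 21647 matched a symbol in the RefSeq table of GRCm38.p6.

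The tests on counts were edgeR's (version 4.0.16, R 4.3.3; quasi-likelihood test, TMM, filterByExpr with minimum count 10 and minimum total 15, Benjamini-Hochberg adjusted p under 0.05 over all genes) on the 10 libraries of each comparison, and on 20 for the difference between responses. The SE of a log2 fold change is its size over the square root of F. Log2 CPM for profiles used a prior count of 2. Floors cover counting error only, and no 2 libraries agreed within sampling noise. Alternatives were RLE scaling, DESeq2 1.42.0, limma-voom 3.58.1, no filter, all 20 libraries in 1 fit, each library left out, a replicate block, and other scalings of the levels. Leaving out vehicle gMDSC libraries 3 and 5 was added after the data were seen. The fits were tested on simulated data.

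The members, the channel, companion and marker lists and the rule for named genes were chosen with earlier results of these data known. The rule took the 8 members, per comparison up to 6 other channel genes and 4 companion genes with the smallest adjusted p under 0.05, and the 5 genes nearest Kcnn4 in profile. Other genes are named as partners, relatives or markers. Of the 103 channel genes listed, 102 matched. Protein sequences were not used here, and 2 genes named by the rule are not reported here.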

Additional observations from a re-analysis of the deposited data

Results flagged for a closer look

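In 32 groups of 5 libraries (8 genes in 4 groups), 2 values lay far from the other 4 of their group by Dixon's ratio, and chance gives about 1 such value in 20 groups. Kcnj10 was 4.64 CPM in CBPi gMDSC library 7, and 1.44 to 2.2 CPM in the other 4, a gap of 0.762 of the range. Kcne3 was 0 CPM in CBPi mMDSC library 6, and 0.436 to 0.592 CPM in the other 4, a gap of 0.736 of the range.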

How the results depend on the processing

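Of the log2 fold changes of the 8 members under the alternatives, 645 kept their side of the threshold or moved within the spread. The spread was used for the 3 noted genes in the CBPi comparisons. A further 8 passed the threshold only under the alternative, 1 lost it and 3 moved. Some uncalled values among the 645 changed sign, such as Kcnk6 under CBPi in gMDSC (0.05, and -0.20 without vehicle gMDSC libraries 3 and 5). Kcna3 was called in gMDSC with all 20 libraries in 1 fit (adjusted p = 0.00735), as was Kcnk13 (0.0483). By limma-voom the Kcnj10 log2 fold change was -6.35 in mMDSC and its difference between responses 4.53; the cause was not tested. Depth limits Kcne3, Kcnj8 in mMDSC and Kcnj10 in CBPi mMDSC, where counts lie near the floor.

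Counts of all genes called higher under CBPi were 675 by DESeq2, 165 with all 20 libraries in 1 fit and 221 to 448 with 1 library left out in mMDSC, and 860, 872 and 229 to 658 in gMDSC. In gMDSC those called lower were 1051, 1310 and 358 to 736. Other channel genes called were, in gMDSC, 1 higher and 1 lower by DESeq2, 1 higher and 2 lower in the fit of all 20, and 0 to 1 lower with 1 library left out; in mMDSC, 1 higher by DESeq2 and 0 to 1 lower with 1 library left out. Between populations under vehicle, genes called lower were 1519 in the fit of all 20 and 676 to 1521 with 1 library left out. Other channel genes called higher there were 1 by DESeq2, limma-voom and the fit of all 20, 2 without a filter and 0 to 1 with 1 library left out, and 1 was lower in the fit of all 20. For the difference between responses, DESeq2 called 184 higher and 93 lower, limma-voom 17 lower, and leaving out 1 library gave 23 to 85 higher and 10 to 32 lower.

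The numbers in the titles are shared between mMDSC and gMDSC. Their deviations correlated at -0.031 to 0.168, over 0.1 in 2 of 10 pairs, and 4 of 10 libraries correlated best with their own number, so the numbers were not read as pairs. With the replicate block the difference between responses gave 33 higher and 19 lower.

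Ratios of mean levels turned sign for Kcnk6 under CBPi in gMDSC (log2 -0.007553 without TMM, -0.03188 by RPKM), Kcnk13 between populations under CBPi (-0.1307, -0.192) and Kcnn4 between populations under vehicle (-0.0582 by RPKM).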
